A study of Mus musculus with 2 samples.

Results

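The data hold 10 listed genes of the osteoblast, the bone-forming cell, and of bone mineralization: Runx2, Sp7, Alpl, Ibsp, Spp1, Bglap, Dmp1, Phex, Mepe and Ifitm5. They were found as the probe sets that the array's annotation pairs with exactly 1 gene, matched on that gene's current symbol only. Of the 10 genes, 7 had such a probe set, 1 each, among 19938 named genes and 35557 probe sets in all. Runx2, Spp1 and Bglap were not analysed here. The probe set of Dmtf1, a different gene that has Dmp1 among its older names, was not counted as Dmp1.

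Total RNA was taken from the fetal ear at E18.5, shortly before birth, and measured on 1 Affymetrix array for each of 2 genotypes. The groups were a double knockout on the BALB/c background, null for both Myf5 and Myod1, and the BALB/c wild type. The proteins of Myf5 and Myod1 are transcription factors that start the skeletal muscle programme. The dissected region of the ear, the sexes and the number of fetuses behind each array are not stated in the labels. With 1 array per genotype no difference has a replicate check or a p-value, and precision is limited by that number of arrays.

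Osteoblasts arise from mesenchymal cells under Runx2 and then Sp7, which together switch on the genes of bone matrix. The matrix mineralizes when alkaline phosphatase removes pyrophosphate, an inhibitor of crystal growth. Acidic phosphoproteins of the SIBLING family (Ibsp, Dmp1, Mepe and Spp1 among them) bind calcium phosphate. Cells that become buried in the matrix turn into osteocytes, which make Dmp1, Phex and Mepe of which Dmp1 and Phex hold back the phosphate-lowering hormone Fgf23. In the ear, such cells lie in the bony labyrinth around the inner ear and in the ossicles of the middle ear.

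The differences between genotypes were small in each of the genes measured, and they did not all point one way. Sequences upstream of the start are shown for the genes with the 2 highest differences, double knockout minus wild type, Ibsp and Ifitm5. They are also shown for those with the 2 lowest differences, Dmp1 and Phex. Each is the 250 bases before a transcript start in RefSeq (build GRCm38.p6), given 5′ to 3′ on the gene's own strand. Dmp1 had 2 such windows, of which only the second is shown. Capitals mark matches to 3 motifs searched on both strands: AACCACA, a core bound by Runx factors, TATAAA, the TATA box, and GGGCGG, a GC box of the kind bound by Sp factors. The Ibsp window lies at chr5:104299037-104299286 on the plus strand, that of Ifitm5 at chr7:140950244-140950493 on the minus strand, that of Dmp1 at chr5:104202367-104202616 on the plus strand and that of Phex at chrX:157415287-157415536 on the minus strand.
Ibsp: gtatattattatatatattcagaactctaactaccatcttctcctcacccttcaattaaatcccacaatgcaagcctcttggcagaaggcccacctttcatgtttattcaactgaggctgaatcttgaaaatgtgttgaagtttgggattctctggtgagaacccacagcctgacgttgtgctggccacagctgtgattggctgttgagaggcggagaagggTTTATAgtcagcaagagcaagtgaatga
Ifitm5: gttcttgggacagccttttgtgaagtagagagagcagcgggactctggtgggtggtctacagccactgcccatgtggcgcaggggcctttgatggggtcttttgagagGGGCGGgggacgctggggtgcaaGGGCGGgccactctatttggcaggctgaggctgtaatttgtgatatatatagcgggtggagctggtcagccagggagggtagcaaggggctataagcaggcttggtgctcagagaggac
Dmp1: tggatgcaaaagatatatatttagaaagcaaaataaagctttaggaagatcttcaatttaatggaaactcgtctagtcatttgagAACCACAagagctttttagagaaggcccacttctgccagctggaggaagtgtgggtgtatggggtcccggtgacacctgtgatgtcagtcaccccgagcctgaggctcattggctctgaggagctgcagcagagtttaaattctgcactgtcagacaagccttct
Phex: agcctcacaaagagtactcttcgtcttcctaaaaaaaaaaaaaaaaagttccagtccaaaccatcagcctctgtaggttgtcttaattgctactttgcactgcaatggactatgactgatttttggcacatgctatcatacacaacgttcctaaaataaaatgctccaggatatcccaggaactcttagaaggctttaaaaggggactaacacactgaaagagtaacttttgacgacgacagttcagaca

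The RefSeq table held 8 windows for 6 of the 7 genes, those of Alpl, Ibsp, Dmp1, Phex, Mepe and Ifitm5, with 2 windows each for Alpl and Dmp1. AACCACA was found in 1 of the 8 windows, the second of Dmp1, where it began 165 bases before the start. It was present in 4.4% of all 32851 windows of that length. TATAAA was found in 3 windows, all on the opposite strand, and in 12.4% of all windows. The match in Ibsp began 28 bases before the start, and those in Alpl and Mepe lay further off, 192 and 173 bases before it. GGGCGG was found in the first window of Alpl, with overlapping matches that began 15 and 10 bases before the start, and in Ifitm5, 142 and 119 bases before it. It was present in 32.7% of all windows. The first Dmp1 window and the Phex window held none of these letters in either direction. A match is a description of the sequence only.

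Signals are log2 values as deposited. The median over all probe sets of each array served as its floor, 5.70 in the double knockout and 5.65 in the wild type, and values below it were treated as not measured. Sp7, Alpl, Ibsp, Dmp1, Phex and Ifitm5 lay above the floor on both arrays, and Mepe lay below it on both. The levels of different genes cannot be set against each other, because each comes from its own probes. In RNA from a whole tissue, fewer cells of a type and less RNA per cell cannot be told apart.

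**Figure D1:**
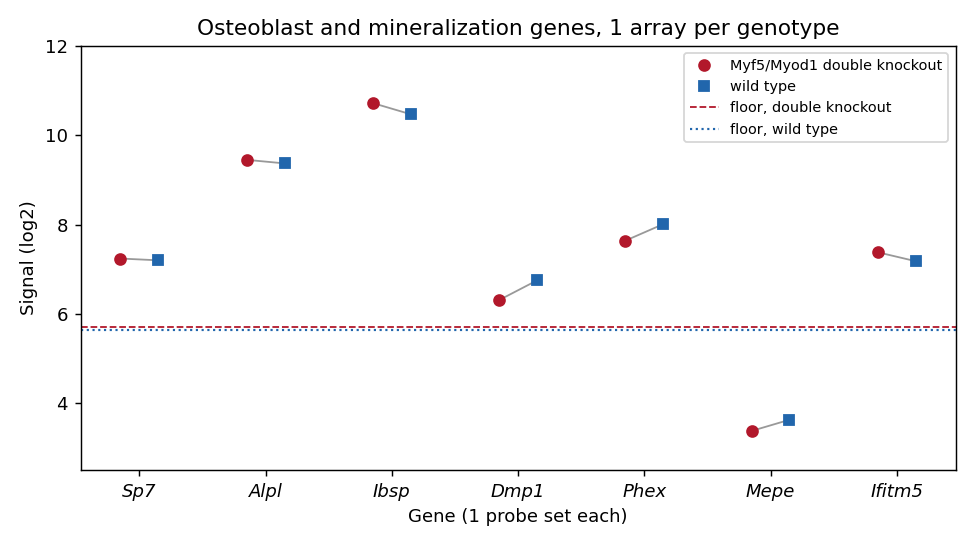
Log2 signal of the 7 osteoblast and mineralization genes with a probe set, 1 point per array, with the double knockout (circles) left of the wild type (squares) and each array's floor as a horizontal line. Dmp1 and Phex sit lower in the double knockout, Ibsp and Ifitm5 slightly higher, and Mepe is below the floor on both arrays; heights of different genes are not comparable.

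Sp7 encodes osterix, the transcription factor without which Runx2-positive precursors do not become osteoblasts. Its signal (probe set 10433003) was 7.24 in the double knockout and 7.20 in the wild type, a log2 difference of 0.05. Sp7 was among the more level genes: of the 12458 genes that passed the floor on 1 or both arrays, 80.9% differed by as much or more in either direction. Alpl encodes the tissue-nonspecific alkaline phosphatase that hydrolyses pyrophosphate, and cells other than osteoblasts also make it. Its signal (probe set 10517587) was 9.45 in the double knockout and 9.37 in the wild type. That difference of 0.08 was matched or exceeded in size by 68.6% of genes.

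Ibsp encodes bone sialoprotein, a SIBLING protein of early bone matrix that can seed hydroxyapatite crystals and that hypertrophic cartilage cells also express. Its signal (probe set 10523701) was 10.72 in the double knockout and 10.47 in the wild type, 1.18-fold higher in the double knockout. This was the largest difference in that direction among the 6 genes, and 26.6% of all genes were as far from 0 or farther. Ifitm5, also called Bril, encodes a small membrane protein largely restricted to osteoblasts, in which a recurrent mutation causes a form of brittle bone disease. Its signal (probe set 10569011) was 7.38 in the double knockout and 7.18 in the wild type, a difference of 0.20 or 1.15-fold. Of all genes, 34.2% differed by at least that much.

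Among the listed genes that osteocytes make, Dmp1 and Phex were above the floor, and both were lower in the double knockout. Of the 6 further osteocyte genes above the floor, described below, 4 were lower and 2 higher. Dmp1, the acidic dentin matrix protein that osteocytes place around their canaliculi, had a signal (probe set 10523693) of 6.31 in the double knockout and 6.75 in the wild type. The log2 difference of -0.45 corresponds to 1.36-fold lower, and 10.1% of genes differed by as much or more. In both genotypes Dmp1 was near the floor, by 0.61 above it in the double knockout and 1.11 above it in the wild type. Phex encodes a membrane protein of the neprilysin protease family, whose loss causes X-linked hypophosphataemia. It had a signal (probe set 10607499) of 7.64 in the double knockout and 8.01 in the wild type, 1.30-fold lower in the double knockout. This difference of -0.37 was equalled or exceeded in size by 13.7% of genes. Mepe, the remaining listed osteocyte gene and a SIBLING, had readings (probe set 10523709) of 3.38 in the double knockout and 3.63 in the wild type. Both were below the floor, so no fold is given.

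None of the 6 genes above the floor reached 1.5-fold. At 2.0-fold, 0 of the 6 were lower and 0 were higher, where 1.71% of the 12458 genes tested were lower and 0.482% were higher. At 1.5-fold the counts were again 0 and 0, where 3.62% of genes were lower and 2.25% higher. At 1.2-fold, a threshold chosen after the values were seen, 2 of the 6 were lower (Dmp1 and Phex), where 12.9% of genes were lower. In the other direction 0 of the 6 passed 1.2-fold, where 11.2% of genes did. By sign alone 2 were lower and 4 were higher, where 50.8% of genes were lower and 48.0% higher. The median difference of the 6 genes was 0.06 and that of all genes -0.01.

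**Figure D2:**
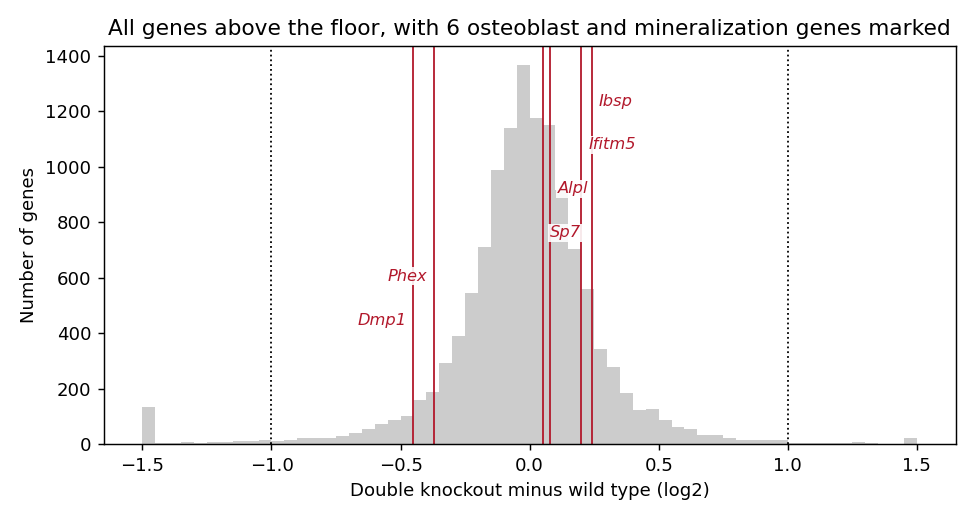
Number of genes (vertical axis) by log2 difference, double knockout minus wild type (horizontal axis), for 12458 genes that passed the floor on 1 or both arrays; differences beyond 1.5 are drawn in the outermost bars, and dotted lines mark 2-fold. The 6 osteoblast and mineralization genes (red lines) lie between -0.45 and 0.24, all inside the dotted lines.

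The spread among the 6 genes was 0.69 log2 units, between Dmp1 at -0.45 and Ibsp at 0.24. The ratio of Ibsp to Dmp1 was thus 1.61 times as large in the double knockout as in the wild type, a quantity that any overall shift between the arrays leaves as it is. Ibsp against Phex gave 1.53 and Dmp1 against Ifitm5 differed by -0.65 on the log2 scale. Dmp1 and Phex, by contrast, were within 0.07 of each other, and Sp7 and Alpl within 0.03. For scale, the difference varied between probe sets of 1 gene by a pooled standard deviation of 0.17, taken over 619 genes with several above the floor. That figure holds probe noise and not the variation between fetuses. The differences of Dmp1 and Phex exceeded it by more than its own size, those of Ibsp and Ifitm5 were just above it, and those of Sp7 and Alpl were below it. The figure pools genes of all signals above the floor. Dmp1 was near the floor, and noise at its level was not estimated apart. The 10th and 90th percentiles of all genes were -0.31 and 0.28, and Dmp1 and Phex lay below that range while the other 4 genes lay inside it.

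**Figure D3:**
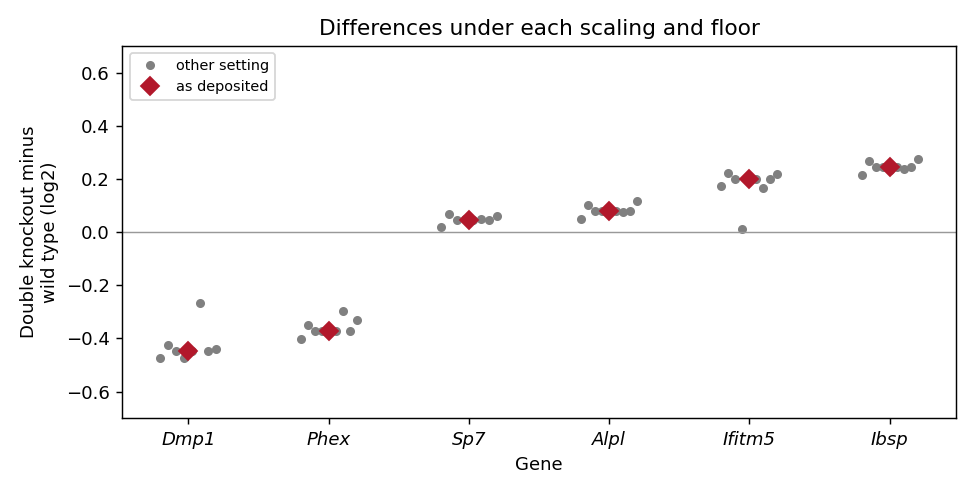
Log2 difference, double knockout minus wild type (vertical axis), of each of the 6 genes above the floor, for the values as deposited (diamonds) and under the other scalings, floors and probe set rules (small points). Dmp1 and Phex were below 0 and the other 4 genes above 0 at every point drawn. Points for the floor at the 25th percentile, no floor and the median over probe sets repeat the deposited values and add no check.

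Other genes of osteoblasts and bone matrix had a median difference of -0.09 over the 18 of 20 above the floor, with 10 lower and 8 higher. At 1.5-fold 1 was lower and 0 were higher, and at 2-fold there were 0 in either direction. Those of highest signal, by which they were chosen, were the collagen genes Col1a1 (11.89 in the double knockout, 11.99 in the wild type) and Col1a2 (11.45 in the double knockout, 11.54 in the wild type), which form the fibres of bone, and Sparc, the osteonectin gene (12.38 in the double knockout, 12.47 in the wild type). Plod2, a lysyl hydroxylase that prepares collagen for cross-linking, was the gene past 1.5-fold, with 8.12 in the double knockout and 8.71 in the wild type. These genes are made by fibroblasts as well.

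Cofactors, upstream signals and antagonists of Runx2 and Sp7 had a median of -0.04, with 9 of 16 lower, 6 higher and 1 with the same deposited value on both arrays. None passed 1.5-fold in either direction. Ctnnb1, the beta-catenin of Wnt signalling, differed by 0.14. Lrp5, a Wnt co-receptor that sets bone mass, differed by -0.12. Zfp521, an antagonist of Runx2, differed by -0.02.

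Regulators of phosphate, pyrophosphate and mineral outside the 10 genes had a median of 0.04 over 11 genes above the floor, 5 lower and 6 higher. Tgm2, the cross-linking enzyme transglutaminase, was 1.80-fold lower in the double knockout (8.05) than in the wild type (8.89), and was the 1 gene past 1.5-fold. The phosphate transporter Slc20a2 differed by -0.49. The calcium-binding annexins Anxa5 and Anxa6, found in matrix vesicles and in many other cells, differed by -0.15 and -0.29.

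Of 7 further osteocyte genes 6 lay above the floor, with 4 lower, 2 higher and a median of -0.17. Pdpn, an early osteocyte membrane protein also made by lymphatic vessels, differed by -0.15. The Wnt antagonist Dkk1 differed by -0.19. Ptprz1, a receptor phosphatase that glia also express, went the other way by 0.49. None passed 1.5-fold. Sost, the sclerostin gene of mature osteocytes, had 5.99 in the double knockout and 5.96 in the wild type, and Fgf23 was below the floor on both arrays with 5.22 in the double knockout and 5.04 in the wild type. Sost and Fgf23 were named after their values were seen.

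Paralogs of the 10 genes did not share a direction. Of 23 listed, 11 were above the floor, with 7 lower, 4 higher and a median of -0.09, and 0 passed 1.5-fold. Among relatives of Runx2, Runx1 differed by -0.15 and Runx3 by 0.00. Among relatives of Sp7, Sp1 differed by -0.18 and Sp3 by -0.09, while Sp9 was at least 1.37-fold higher in the double knockout, where it read 6.10, than in the wild type, where it was below the floor at 5.56. Among proteases related to Phex, Ecel1, known chiefly from neurons, differed by -0.51, Ece1 by -0.11 and Mme, neprilysin itself, by 0.17. The interferon-induced relatives of Ifitm5 differed by 0.18 for Ifitm1, -0.11 for Ifitm2 and -0.07 for Ifitm3. Whether the probes of these related genes separate them was not tested. Dspp, the SIBLING of dentin, was below the floor on both arrays.

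**Figure D4:**
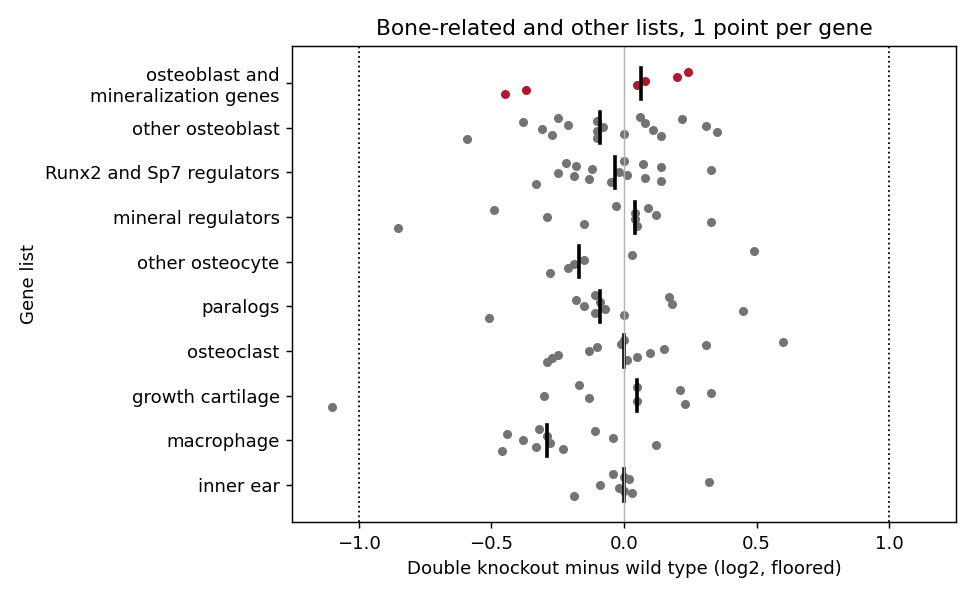
Log2 difference, double knockout minus wild type, for each gene above the floor (1 point each) in the osteoblast and mineralization genes (red) and in 9 other lists; thick bars mark list medians and dotted lines 2-fold. The 6 red points lie between -0.45 and 0.24, Col10a1 is the 1 point beyond 2-fold, and the macrophage points lie mostly left of 0.

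Markers of other cells gave the setting of these values. The 12 muscle genes were all at least 2-fold lower, with a median of -5.39 after flooring and summed linear signals of 564 in the double knockout and 30273 in the wild type. Summed signals here take the readings as deposited, also those below the floor. Acta1, Actc1 and Myl1, which encode sarcomeric actins and a myosin light chain, were 88.3-fold, 93.2-fold and 48.5-fold lower. In the double knockout Acta1 read 5.73 and Actc1 5.84, close to the floor of 5.70, which limits how exact these folds are. Myod1 read 6.38 in the double knockout and 6.95 in the wild type, and Myf5 read 5.25, below the floor, in the double knockout and 5.94 in the wild type. Whether their probes lie in the deleted parts is not stated in the labels. Of 10 inner ear genes 9 were above the floor, with a list median of 0.00. Among them Oc90 of otoconia, Tecta of the tectorial membrane and Coch had differences of -0.02, 0.02 and 0.32. In that list 4 genes were lower, 3 were higher and 2, which set the median, had the same deposited value on both arrays.

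Macrophage genes were lower in 10 of 11 cases with a median of -0.29 and summed linear signals of 1972 in the double knockout and 2370 in the wild type, and 0 passed 1.5-fold. Csf1r, C1qb and Mrc1 differed by -0.29, -0.32 and -0.28. Their part in the lower Dmp1 and Phex signals was not tested. Osteoclast genes, of the cells that resorb bone, had a median of 0.00 over 13 genes, with Ctsk, Acp5 and Mmp9 at -0.01, 0.01 and 0.15. Of the 13 genes 6 were lower, 6 were higher and 1, which set the median, had the same deposited value on both arrays. The osteoclast-inducing cytokine Tnfsf11, or RANKL, which osteoblasts and osteocytes supply, was 1.51-fold higher, with 6.44 in the double knockout and 5.85, close to the floor, in the wild type. Growth cartilage genes had a median of 0.05 over 9 genes, with Col2a1, Cnmd and Mmp13 at 0.05, 0.21 and -0.17. Col10a1, whose collagen marks hypertrophic cartilage, was lower by 2.14-fold, with 6.34 in the double knockout and 7.44 in the wild type. Ibsp, which hypertrophic cartilage also expresses, went the other way. Of 8 tooth genes, whose cells can make Dmp1 and Ibsp, 0 were above the floor. Their summed linear signals, 148 in the double knockout and 137 in the wild type, hold only readings below the floor and give no comparison.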

How the data were processed

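Per the labels, Trizol-extracted total RNA (6 µg) was made into biotin-labelled cRNA for 1 array per genotype. The authors deposited 1 log2 value per probe set and array, from 0.75 to 13.26 in the double knockout and from 0.81 to 13.27 in the wild type. The base of the logarithm was read from that range. The submitters' processing notes name MAS5, a method that uses mismatch probes, which arrays of this design lack, so how the deposited values were summarized is unsettled. The background correction, normalization and genome build were not given in the sources used here. On both arrays 1227 of 35557 probe sets carried the same value to the last deposited digit. None of these belonged to the 7 listed genes with a probe set. A few genes of the context lists are among them, and how this arose was not tested.

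Probe sets were named through GEO's annotation of the platform, which may be out of date: 21789 probe sets had 1 gene, 1621 several and 12147 none listed. Of those with 1 gene, 21698 had an Entrez identifier in the RefSeq table of GRCm38.p6, and 0 symbols were updated. The probe set of highest mean signal stood for a gene. Differences are the double knockout's log2 value less that of the wild type, after raising values below the 50th percentile of the array to it. A gene entered where it was above that floor on at least 1 array, and a difference with 1 side at the floor is a bound. The calculation was tested on simulated data, with differences past 2-fold planted in genes well above the floor. That test does not cover differences as small as those of the listed genes, or signals as near the floor as that of Dmp1. Python 3.11.15, pandas 2.3.3 and statsmodels 0.14.6 were used.

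The 10 genes, 11 context lists and alternatives were chosen with earlier results of these data known. The rule named all 10 genes with their probe sets, paralogs above the floor, Myf5 and Myod1, and from each list the 3 genes of highest signal and the largest difference of 1.5-fold or more each way. No gene was named for resembling another in pattern, since 2 arrays define none.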

Additional observations from a re-analysis of the deposited data

How the results depend on the processing

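No paired analysis was possible because each genotype had 1 array. The osteoblast and mineralization genes gave 0 calls at 2-fold in either direction under all 9 alternative settings. These were 4 scalings, 4 choices of floor or pseudocount and the median over probe sets. The deposited values also gave 0 calls at 1.5-fold and 3-fold, which at 3-fold follows from the 0 at 2-fold. The floor at the 25th percentile, no floor and the median over probe sets left the 6 genes at their deposited values. Those settings could thus not change their calls. Dmp1 stayed between -0.47 and -0.27, Phex between -0.40 and -0.30, Ibsp between 0.22 and 0.28, Alpl between 0.05 and 0.12, Sp7 between 0.02 and 0.07 and Ifitm5 between 0.01 and 0.22, its lowest value being a bound with the floor at the 75th percentile. With that floor Sp7 and Dmp1 were not measured. The median over all genes moved by less than 0.1 under each scaling. Over all genes, 213 were lower and 60 higher at 2-fold in the double knockout. These counts were 111 and 21 when the floor was the 75th percentile, 451 and 280 at 1.5-fold and 120 and 16 at 3-fold. The count of higher genes was 92 with no floor and 34 with the median signal as pseudocount. The muscle median was -5.69 when the floor was the 25th percentile or absent, -3.91 with it at the 75th and -4.67 with the pseudocount. The median of further osteocyte genes was 0.17 when the floor was the 75th percentile, where fewer genes entered. The median of paralogs was 0.12 when the floor was the 25th percentile or absent and 0.078 with the pseudocount, where more low genes entered. Signal near the floor limits Dmp1 most, and nothing here measures the variation between fetuses.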

Other observations

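Dmp1, Ibsp and Mepe are neighbours on chromosome 5, in the order Dspp, Dmp1, Ibsp, Mepe in the RefSeq annotation. The adjoining genes were looked at after the values of the 3 had been seen. On the Dspp side, Sparcl1, a matrix protein related to Sparc, differed by -0.12 (10.84 in the double knockout, 10.96 in the wild type). Beyond it, Nudt9 differed by -0.17 and Hsd17b11 by -0.06. On the Mepe side, Thoc2l was just above the floor with 5.82 in the double knockout and 5.74 in the wild type. Dmp1 and Ibsp, adjacent among the genes with a probe set, thus had differences of opposite sign, -0.45 and 0.24, and the flanking genes above the floor lay between these values.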
